A study of Mus musculus with 70 samples.

Results

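Ifitm1, Ifitm2, Ifitm3 and Ifitm10, 4 members of the interferon-induced transmembrane protein family, and Bst2, which encodes tetherin, were followed by RNA sequencing in 8 mouse cancer cell lines. The 5 genes were taken by symbol from a table of 35197 gene rows, and all 5 were among the 16147 genes with enough counts to be tested. Cells had been given IFNg (100 ng/mL), IFNb (1000 activity units/mL) or no cytokine (NS), with the stimulation lasting 48 h. B16.1 and YUMMER1.7 are labelled melanoma, KPC.2 and Panc02.3 pancreatic cancer, CT26.2 and MC38.7 colorectal cancer, LLC lung cancer and Renca renal cancer. CT26.2 and Renca carry a BALB/c genotype and the other 6 lines C57BL/6. Each line and treatment had 3 libraries, except LLC with IFNg and Renca NS with 2, which gave 23 IFNg, 24 IFNb and 23 NS libraries. The labels do not say that replicates were grown apart, so each p-value rests on a spread between libraries that could be technical.

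Interferons bind cell surface receptors and act through JAK kinases and the transcription factors these switch on: IFNb mainly through the interferon-stimulated response element (ISRE) in the promoters of its target genes, and IFNg mainly through the gamma-activated site (GAS). Ifitm3 is the family member best known for blocking viruses at endosomes, where it hinders fusion of the viral and cellular membranes. Ifitm1 sits more at the cell surface, Ifitm2 resembles Ifitm3 in structure, and Ifitm10 is a distant relative without an established antiviral role. Tetherin is an unrelated protein anchored in the membrane at both ends, which holds budding enveloped virus particles on the cell that made them.

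On the GRCm38 annotation, Ifitm2 (chr7:140954837-140955987, minus strand), Ifitm1 (chr7:140967221-140969825, plus strand) and Ifitm3 (chr7:141009586-141010770, minus strand) lie side by side on chromosome 7. Ifitm10 (chr7:142325837-142373753, minus strand) is further along the same chromosome, and Bst2 (chr8:71534255-71537456, minus strand) is on chromosome 8. The RefSeq promoter windows on GRCm38.p6, from 250 bases before to 50 after the start site, are printed for the 2 genes that rose in most lines, Ifitm3 (chr7:141010695-141010994) and Bst2 (chr8:71537423-71537722), and for the 2 neighbours of Ifitm3 that did not, Ifitm2 (chr7:140955912-140956211) and Ifitm1 (chr7:140967826-140968125). Each reads 5′ to 3′ on the gene's own strand, and capitals mark exact matches on either strand to the ISRE core, which is GAAA, any 2 bases and GAAA (on the other strand TTTC, any 2 bases and TTTC), or to the GAS core TTCNNNGAA, which is its own reverse complement.
Ifitm3: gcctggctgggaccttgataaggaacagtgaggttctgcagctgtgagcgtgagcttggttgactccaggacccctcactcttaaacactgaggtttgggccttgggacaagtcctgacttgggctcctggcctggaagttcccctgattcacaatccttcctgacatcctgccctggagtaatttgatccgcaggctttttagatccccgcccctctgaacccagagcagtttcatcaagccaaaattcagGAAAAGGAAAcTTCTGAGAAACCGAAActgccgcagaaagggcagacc
Bst2: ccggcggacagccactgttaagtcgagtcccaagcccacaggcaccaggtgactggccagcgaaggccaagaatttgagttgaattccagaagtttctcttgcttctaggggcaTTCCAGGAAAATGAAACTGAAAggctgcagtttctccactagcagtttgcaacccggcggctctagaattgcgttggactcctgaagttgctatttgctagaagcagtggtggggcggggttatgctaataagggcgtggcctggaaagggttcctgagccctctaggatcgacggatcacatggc
Ifitm2: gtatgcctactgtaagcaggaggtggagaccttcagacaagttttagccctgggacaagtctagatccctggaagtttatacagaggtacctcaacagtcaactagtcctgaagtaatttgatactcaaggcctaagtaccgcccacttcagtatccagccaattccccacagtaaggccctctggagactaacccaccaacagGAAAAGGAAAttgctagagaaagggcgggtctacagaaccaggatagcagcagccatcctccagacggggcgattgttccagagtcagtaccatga
Ifitm1: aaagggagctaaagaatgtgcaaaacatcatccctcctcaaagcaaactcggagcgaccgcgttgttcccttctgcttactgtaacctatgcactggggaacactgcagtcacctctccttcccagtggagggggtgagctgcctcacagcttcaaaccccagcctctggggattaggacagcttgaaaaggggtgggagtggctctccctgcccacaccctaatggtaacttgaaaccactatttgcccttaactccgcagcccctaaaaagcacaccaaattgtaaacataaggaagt
The Ifitm3 window held 2 ISRE cores, at bases 3 to 12 and 20 to 29 after the start site, and 1 GAS core at bases 14 to 22, which overlaps the second ISRE core. The Bst2 window held 2 ISRE cores that overlap each other, at −130 to −121 and −124 to −115 relative to the start site, and 1 GAS core at −136 to −128, which overlaps the first of them. Ifitm2 had 1 ISRE core, at −46 to −37, with the same letters as the first core of Ifitm3, and no GAS core. No match to either motif was in the windows of Ifitm1 or Ifitm10, which says only that these letters are absent there. The Ifitm1 window, from base 140967826, lies inside the annotated gene, which starts at base 140967221. No window at that annotated start was searched. Among 27025 genes with such windows, 3.99% held an ISRE core, 9.55% a GAS core and 0.61% both. A match is a description of letters and not evidence of a bound site. Over their whole windows Ifitm2 and Ifitm3 shared 48.9% of aligned bases.

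Library totals ran from 668355 to 28550816 estimated counts with a median of 8644887, and the shallowest library, KPC.2 with IFNb replicate 3, has its values given apart where they matter. The labels of origin were checked on lineage markers over 1 CPM in NS libraries, where CPM is a gene's count scaled to library size (for the 5 genes, after TMM scaling). B16.1 held 7 of 7 melanocyte markers, while Renca held 4 of 4 kidney markers and KPC.2 6 of 6 epithelial markers. Of the epithelial markers, Renca held 5, LLC and Panc02.3 4 each, CT26.2 2, MC38.7 and B16.1 1 each and YUMMER1.7 0. This list thus did not set MC38.7 apart from the melanoma line B16.1. YUMMER1.7 held only 1 melanocyte marker, Mitf, which was detected in every line but KPC.2. CT26.2 and MC38.7 held 3 of 7 melanocyte markers each and LLC 2 of 7, so this list does not show the origin of YUMMER1.7. Pdx1, a pancreas marker, was detected in KPC.2 and Panc02.3, but Ptf1a and Cpa1 were not. LLC had 0 of 4 lung markers, MC38.7 0 of 4 and CT26.2 1 of 4 intestine markers, so their tissue of origin is not visible in these lists. The intestine list was detected more in the pancreatic lines, with 3 of 4 genes in KPC.2 and 2 of 4 in Panc02.3.

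Ifitm3 differed widely in level between the lines and was raised by each cytokine in 7 of the 8 lines. On the mean of the 8 lines its log2 fold change was 2.15 ± 0.04 with IFNg and 2.57 ± 0.04 with IFNb (SE from the spread between libraries; adjusted p = 9.31e-47 and 9.33e-52, edgeR's quasi-likelihood test, Benjamini-Hochberg adjusted, as for every adjusted p below). On that mean, Ifitm3 and Bst2 rose with IFNg and Ifitm2 fell, which rested on Panc02.3, against 18.3% of all tested genes that rose and 23.7% that fell. With IFNb, Ifitm3 and Bst2 rose and 0 of the members fell, against 13.0% that rose and 17.3% that fell. Ifitm1 and Ifitm10 have no mean over lines, because at least 1 group had 3 counts or fewer. Of all tested genes, 1.64% rose in at least 7 lines with IFNg and 0.694% with IFNb. A rise or fall stands for an adjusted p under 0.05. In bulk libraries, fewer cells carrying a transcript and less of it per cell cannot be told apart.

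**Figure D1:**
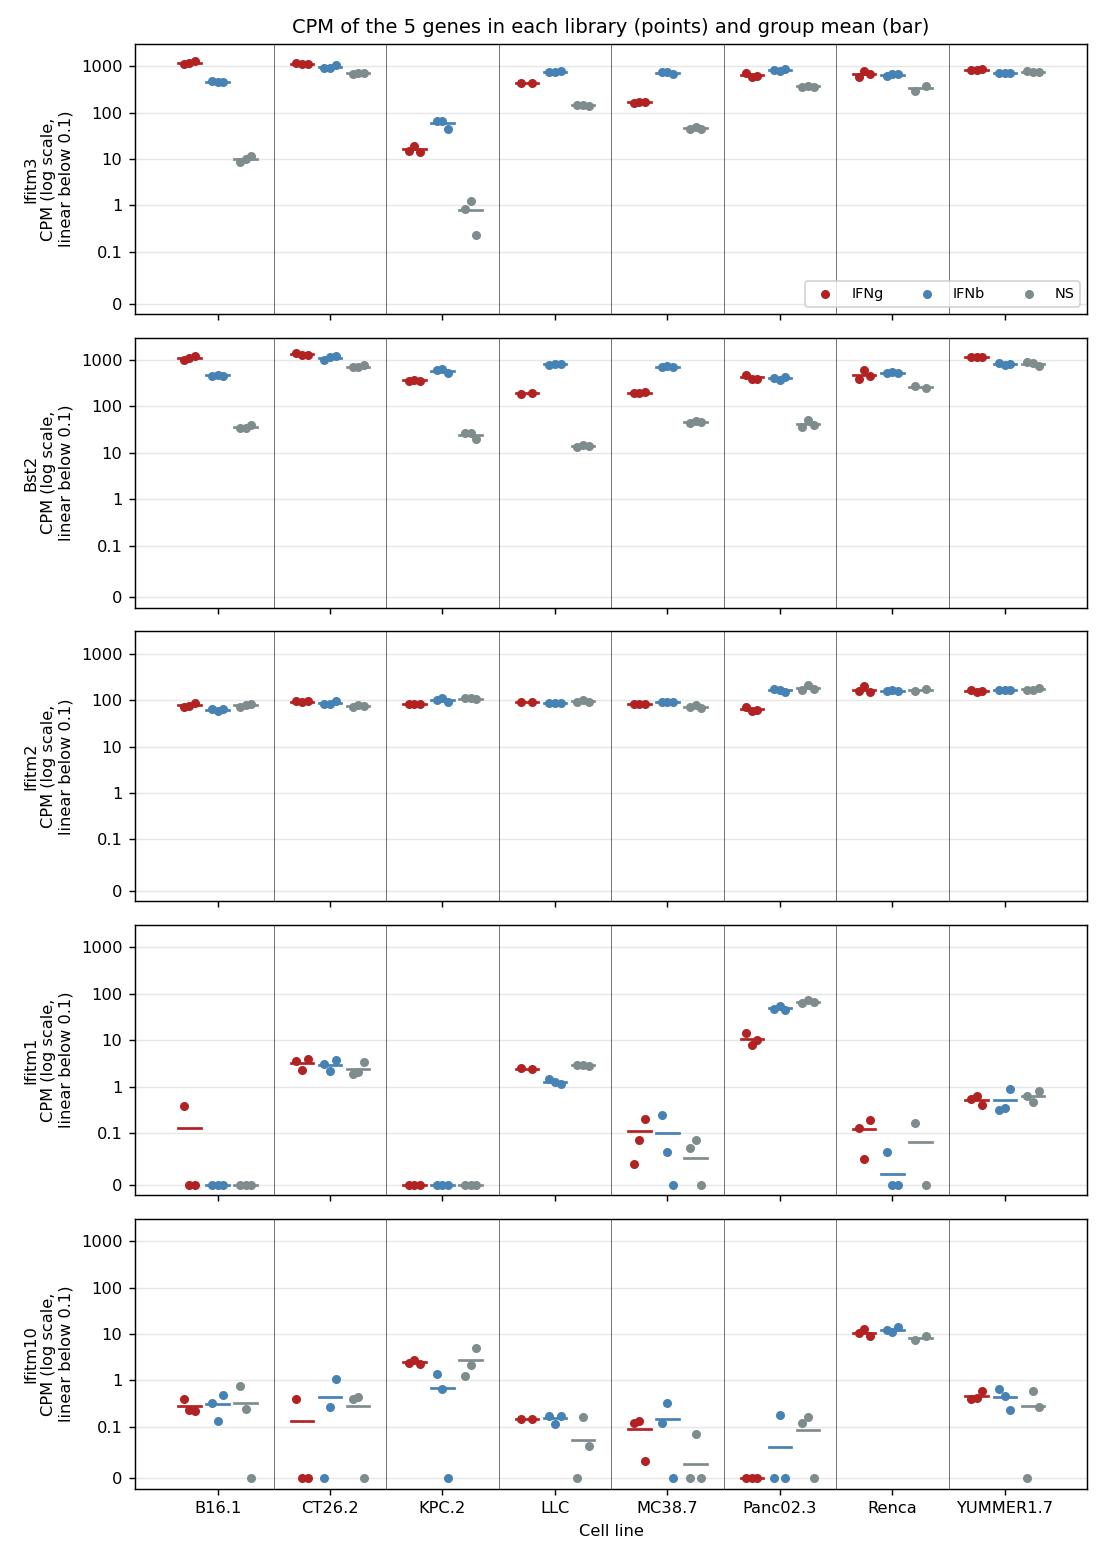
Level of each of the 5 genes in every library, by cell line, with IFNg, IFNb and NS from left to right in each line. Points are libraries, bars group means, and the axis is logarithmic in CPM above 0.1 and linear below it. Ifitm3 and Bst2 differ between treatments in most lines, Ifitm2 stays between 56.8 and 208 CPM, and Ifitm1 and Ifitm10 are near 0 in most lines.

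The NS level of Ifitm3 set the lines apart. It was highest in YUMMER1.7 (763 ± 27.9 CPM, SD, n = 3) and lowest in KPC.2 (0.782 ± 0.523 CPM), a ratio of 976. In order, the NS means were YUMMER1.7, CT26.2, Panc02.3, Renca, LLC, MC38.7, B16.1 and KPC.2, and only the ranges of Panc02.3 and Renca overlapped among neighbours (difference between lines, F test, adjusted p = 8.97e-56, against 96.5% of all genes that passed it). With IFNg the ratio of the highest to the lowest line was 74.5 and with IFNb 16.4. Without KPC.2, left out after its low values were seen, those ratios were 7.11 with IFNg, 2.09 with IFNb and 76.2 in NS. With IFNb the 7 other lines thus lay within 460.2 (B16.1) to 960.2 CPM (CT26.2), although their NS levels ran from 10.0 to 763 CPM.

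Among the lines with low NS levels, B16.1 had the largest rise with IFNg. Its Ifitm3 libraries held 1136, 1193 and 1259 CPM with IFNg, 473, 459 and 449 CPM with IFNb and 8.72, 9.85 and 11.5 CPM in NS. The 3 groups did not overlap, with IFNg highest and NS lowest, and the log2 fold change was 6.89 ± 0.11 with IFNg and 5.51 ± 0.11 with IFNb. Of all genes in B16.1, 27.6% rose with IFNg and 14.6% with IFNb. In KPC.2 the values were 15.0, 18.9 and 14.3 CPM with IFNg, 65.1, 66.5 and 43.5 CPM with IFNb and 0.834, 1.28 and 0.235 CPM in NS. There IFNb was highest and again no groups overlapped, but the rises of 4.18 ± 0.27 with IFNg and 6.17 ± 0.22 with IFNb started from 16 NS counts in all 3 libraries, and the lowest IFNb value came from the shallowest library, with 31 counts. Without that library the IFNb rise was 6.23. Rises were made by 13.8% of all genes in KPC.2 with IFNg and by 2.52% with IFNb. MC38.7 had 163, 172 and 170.2 CPM with IFNg, 739.9, 753 and 676 CPM with IFNb and 45.0, 49.2 and 44.8 CPM in NS. The IFNb libraries of MC38.7 thus stood well above its IFNg libraries, which stood above NS, for changes of 1.86 ± 0.09 with IFNg and 3.97 ± 0.09 with IFNb, in a line where 3.89% of genes rose with IFNg and 13.8% with IFNb. LLC showed the same order, with 437 and 437 CPM with IFNg, 756, 745 and 787 CPM with IFNb and 143, 147 and 140.3 CPM in NS, and changes of 1.61 ± 0.09 with IFNg and 2.41 ± 0.08 with IFNb. In LLC 6.65% of genes rose with IFNg and 17.6% with IFNb. All of these rises passed the test, with adjusted p of 5.44e-20 at most.

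The lines with high NS levels rose less. Panc02.3 had 707, 587 and 612 CPM with IFNg, 809.8, 798 and 862 CPM with IFNb and 358, 376 and 359.8 CPM in NS. Both cytokine groups lay above NS, with log2 fold changes of 0.80 ± 0.08 with IFNg and 1.18 ± 0.08 with IFNb, where 23.2% and 3.33% of genes rose. Renca had 585, 803 and 661 CPM with IFNg, 627, 683 and 672 CPM with IFNb and 295 and 379 CPM in its 2 NS libraries, and CT26.2 had 1180.3, 1101 and 1132 CPM with IFNg, 916, 907 and 1058 CPM with IFNb and 667, 704 and 715 CPM in NS. In both, every cytokine library exceeded every NS library, and the changes were 1.02 ± 0.09 with IFNg and 0.97 ± 0.09 with IFNb in Renca, and 0.71 ± 0.08 with IFNg and 0.46 ± 0.08 with IFNb in CT26.2. The share of all genes that rose was 6.04% with IFNg and 7.10% with IFNb in Renca, and 4.97% with IFNg and 1.97% with IFNb in CT26.2. YUMMER1.7 was the one line where neither change passed, with 824, 842 and 858 CPM with IFNg, 722, 697 and 708 CPM with IFNb and 793, 759 and 737 CPM in NS. All 9 libraries lay within 697 to 858 CPM, the IFNg ones above and the IFNb ones below NS, and the differences of 0.14 ± 0.08 (adjusted p = 0.214) with IFNg and −0.11 ± 0.08 (adjusted p = 0.705) with IFNb did not pass. Fitted alone, YUMMER1.7 gave 0.17 for IFNg (adjusted p = 0.00362).

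Bst2 rose with IFNg in all 8 lines, as did 1.04% of all genes, and with IFNb in 7. The mean log2 fold change was 2.52 ± 0.04 with IFNg and 2.86 ± 0.04 with IFNb (adjusted p = 1.57e-52 and 5.02e-55). The line with the largest IFNb rise was LLC, with 189 and 189 CPM with IFNg, 775, 807 and 820.4 CPM with IFNb and 13.5, 14.8 and 14.0 CPM in NS. Its IFNb libraries lay far above its IFNg libraries, and the changes were 3.74 ± 0.12 with IFNg and 5.82 ± 0.12 with IFNb. In KPC.2, where Ifitm3 stayed low, Bst2 reached 356, 375 and 349.7 CPM with IFNg and 598, 623 and 514 CPM with IFNb, against 27.1, 26.9 and 19.9 CPM in NS. All cytokine libraries there lay far above the NS libraries, for changes of 3.84 ± 0.12 with IFNg and 4.54 ± 0.12 with IFNb. B16.1 had 1011, 1115 and 1187 CPM with IFNg, 455, 484 and 448 CPM with IFNb and 34.9, 34.4 and 38.9 CPM in NS. The IFNg group was the highest of the 3 here, with changes of 4.93 ± 0.11 with IFNg and 3.68 ± 0.11 with IFNb. MC38.7 had 196, 189 and 200.2 CPM with IFNg, 718, 744 and 692 CPM with IFNb and 44.5, 48.6 and 47.0 CPM in NS, which placed IFNb highest, with changes of 2.06 ± 0.10 with IFNg and 3.95 ± 0.10 with IFNb.

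Panc02.3 raised Bst2 about equally with both cytokines. Its libraries held 480.3, 397 and 378 CPM with IFNg, 413, 374 and 433 CPM with IFNb and 36.2, 49.6 and 39.9 CPM in NS, and the cytokine groups overlapped each other but not NS. The changes were 3.34 ± 0.11 with IFNg and 3.29 ± 0.11 with IFNb, both larger than those of Ifitm3 in that line. Renca had 392, 595 and 457 CPM with IFNg, 522, 543 and 519.8 CPM with IFNb and 269 and 249 CPM in NS, and CT26.2 had 1409, 1268 and 1301 CPM with IFNg, 971, 1125 and 1207 CPM with IFNb and 689, 709 and 761 CPM in NS. In both lines the cytokine libraries exceeded the NS libraries, by 0.89 ± 0.10 with IFNg and 1.03 ± 0.10 with IFNb in Renca and by 0.88 ± 0.09 with IFNg and 0.61 ± 0.09 with IFNb in CT26.2. YUMMER1.7 had 1176, 1166 and 1170.2 CPM with IFNg, 837, 795 and 797 CPM with IFNb and 880.3, 864 and 751 CPM in NS. Only its IFNg group stood above NS, with a rise of 0.49 ± 0.09 (adjusted p = 1.17e-05) in a line where 9.79% of genes rose with IFNg, and with IFNb the difference was −0.04 ± 0.09 (adjusted p = 0.967).

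The spread of Bst2 over the lines was narrower under cytokine than in NS. The ratio of the highest to the lowest line was 7.01 with IFNg, 2.71 with IFNb and 58.9 in NS. The NS order was YUMMER1.7, CT26.2, Renca, MC38.7, Panc02.3, B16.1, KPC.2 and LLC, and the ranges overlapped for YUMMER1.7 with CT26.2, MC38.7 with Panc02.3, and Panc02.3 with B16.1 (difference between lines, adjusted p = 1.73e-54). The 3 lines with most Bst2 in NS were also those with most Irf7, a factor that switches on type I interferon genes and is itself induced by interferon. NS Irf7 averaged 285 ± 36.3 CPM in YUMMER1.7, 278 ± 8.54 CPM in Renca and 248 ± 13.3 CPM in CT26.2, against 21.2 ± 5.78 CPM in Panc02.3 and between 0.235 and 2.22 CPM in the other 4 lines. Ifitm3 in Panc02.3 NS (365 ± 9.74 CPM) did not follow this split, since it was above that in Renca NS (337 ± 59.5 CPM). No relation across the lines was tested.

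**Figure D2:**
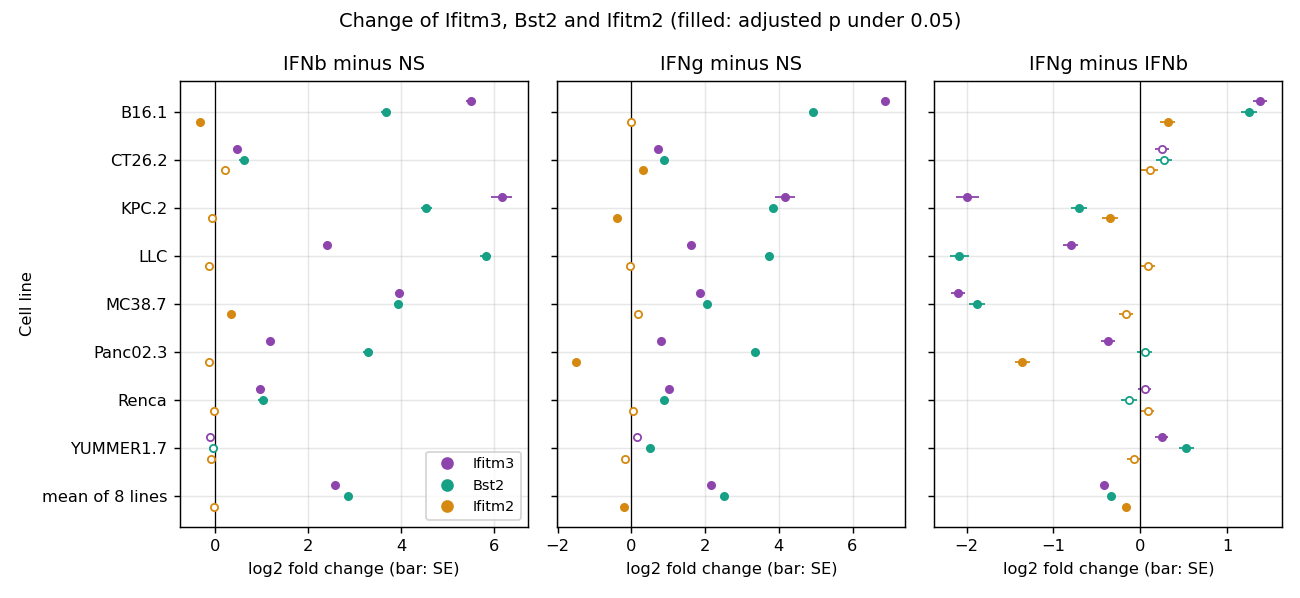
Log2 fold change of Ifitm3, Bst2 and Ifitm2 in each line and on the mean of the 8 lines, for each cytokine against NS and for the 2 cytokines against each other. Points are edgeR estimates, bars SE, and filled points have an adjusted p under 0.05. Against NS, Ifitm3 and Bst2 lie above 0 in most lines, while Ifitm2 stays near 0 except in Panc02.3 with IFNg (−1.49 ± 0.09).

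The direct comparison of IFNg with IFNb did not go one way over the lines, although Ifitm3, Bst2 and Ifitm2 were all lower with IFNg than with IFNb on the mean (adjusted p = 1.64e-17 for Ifitm3, against 18.0% of all genes that rose and 18.7% that fell). The mean differences were −0.42 ± 0.03 for Ifitm3 and −0.34 ± 0.03 for Bst2. The mean difference of Ifitm2 rested on Panc02.3 and was 0.0023 ± 0.03 without that line. Ifitm3 was lower with IFNg than with IFNb in MC38.7 (−2.10 ± 0.08), KPC.2 (−1.99 ± 0.13), LLC (−0.80 ± 0.09) and Panc02.3 (−0.37 ± 0.08), and higher in B16.1 (1.38 ± 0.08) and YUMMER1.7 (0.25 ± 0.08). Of all genes, 10.5% were lower with IFNg in MC38.7, 9.18% in KPC.2, 12.5% in LLC and 30.4% in Panc02.3, and 26.0% were higher in B16.1 and 9.09% in YUMMER1.7. Bst2 was lower with IFNg in LLC (−2.08 ± 0.11), MC38.7 (−1.88 ± 0.09) and KPC.2 (−0.70 ± 0.09), and higher in B16.1 (1.26 ± 0.09) and YUMMER1.7 (0.53 ± 0.09). Both genes therefore passed in opposite directions in different lines, as did 39.4% of all tested genes, and the difference between lines passed its own F test (adjusted p = 1.07e-33 for Ifitm3 and 1.33e-31 for Bst2, against 70.1% of all genes). The YUMMER1.7 value of Ifitm3 (adjusted p = 0.0173) no longer passed when IFNb replicate 2 (adjusted p = 0.0646), IFNb replicate 3 (adjusted p = 0.0507) or IFNg replicate 3 (adjusted p = 0.0615) was left out. In CT26.2 neither gene passed (0.25 ± 0.08, adjusted p = 0.0592 for Ifitm3, and 0.27 ± 0.09, adjusted p = 0.0748 for Bst2), but both did with DESeq2's size factors (adjusted p = 0.0295 and 0.0464). In Renca the differences were 0.05 ± 0.08 for Ifitm3 and −0.13 ± 0.09 for Bst2. That of Bst2 passed only without IFNg replicate 2, the highest library of its group (−0.31, adjusted p = 0.0149). The cytokine doses were single ones in different units, so these differences hold for these doses. With single lines left out of the mean, an alternative added after the values were seen, the difference of Ifitm3 was −0.67 without B16.1, −0.19 without KPC.2 and −0.18 without MC38.7. That of Bst2 was −0.56 without B16.1, −0.28 without KPC.2, −0.12 without MC38.7 and −0.09 without LLC (adjusted p = 0.0371), so the mean depended on which lines entered it.

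The size of the response itself differed between lines for both genes. The F test over the 8 within-line changes gave an adjusted p of 8.01e-43 for Ifitm3 and 5.78e-38 for Bst2 with IFNg, against 69.2% of all genes that passed, and 1.79e-43 for Ifitm3 and 4.34e-43 for Bst2 with IFNb, against 48.2%.

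Ifitm3 and Bst2 did not keep a fixed balance in some of the lines. Within libraries of LLC, the ratio of Ifitm3 to Bst2 counts was 2.31 ± 0.00629 with IFNg (n = 2), 0.952 ± 0.0268 with IFNb and 10.2 ± 0.389 in NS (SD, n = 3 each). Panc02.3 likewise had 1.52 ± 0.0832 with IFNg, 2.03 ± 0.0927 with IFNb and 8.83 ± 1.17 in NS. In these 2 lines Bst2 therefore gained on Ifitm3 with each cytokine, and the groups did not overlap. B16.1 moved the other way, with 1.09 ± 0.0339 with IFNg, 0.997 ± 0.0462 with IFNb and 0.277 ± 0.0236 in NS. KPC.2 stood apart at every treatment, with 0.0445 ± 0.00516 with IFNg, 0.10 ± 0.013 with IFNb and 0.0300 ± 0.0178 in NS. The NS value there rests on 16 Ifitm3 counts in all. MC38.7 held 0.864 ± 0.0390 with IFNg, 1.01 ± 0.0272 with IFNb and 0.993 ± 0.0339 in NS, so that its ratio with IFNb was close to that in NS while both genes rose. CT26.2, Renca and YUMMER1.7 moved less than LLC, Panc02.3 and B16.1. With IFNg, IFNb and NS in that order, CT26.2 had 0.859, 0.875 and 0.967, Renca 1.43, 1.25 and 1.31, and YUMMER1.7 0.719, 0.876 and 0.920. These ratios are of counts within a library, so library depth cancels out, and they were not tested. Over the 24 group means, Pearson's r of log2 CPM between Ifitm3 and Bst2 was 0.69, a description over groups that share lines.

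**Figure D3:**
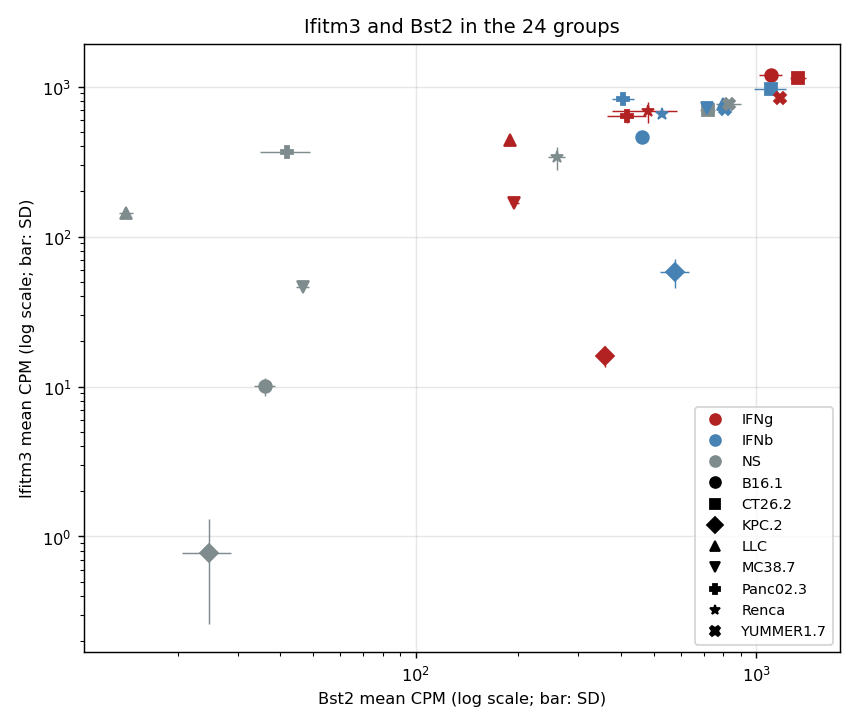
Mean Ifitm3 against mean Bst2 in the 24 groups, on logarithmic CPM axes, with colour for the treatment, symbol for the line and bars for SD. Ifitm3 is on the vertical axis. The cytokine groups of 7 lines lie at 168 CPM of Ifitm3 or more, the KPC.2 groups lie lower at 16 CPM with IFNg, 58.4 CPM with IFNb and 0.782 CPM in NS, and the NS groups of LLC and Panc02.3 lie at the upper left.

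Ifitm2 was close to constant where its neighbour Ifitm3 was not. Its group means ran from 62.0 to 183 CPM, and the ratio of the highest to the lowest line was 2.64 with IFNg, 2.67 with IFNb and 2.52 in NS. The clear exception was Panc02.3 with IFNg, which held 72.2, 56.8 and 62.1 CPM with IFNg, 176, 168 and 152 CPM with IFNb and 164, 208 and 176 CPM in NS. The IFNg libraries lay below all others of the line, and the change was −1.49 ± 0.09 against NS (adjusted p = 3.81e-22) and −1.36 ± 0.09 against IFNb (adjusted p = 3.22e-20). In that line 31.6% of all genes fell with IFNg against NS and 30.4% against IFNb, so a fall was common there. Smaller changes passed in KPC.2, where Ifitm2 had 82.7, 82.4 and 80.3 CPM with IFNg, 98.2, 113 and 91.3 CPM with IFNb and 111, 109 and 105 CPM in NS, so that IFNg was lowest (−0.40 ± 0.08 against NS, where 15.8% of genes fell). In CT26.2 it rose with IFNg by 0.33 ± 0.09 (adjusted p = 0.0148), which did not pass without NS replicate 1 (adjusted p = 0.111) or IFNg replicate 3 (adjusted p = 0.0865). With IFNb it rose in MC38.7 (0.34 ± 0.08) and fell in B16.1 (−0.33 ± 0.08, where 14.3% of genes fell), and 11.6% of all genes likewise rose in at least 1 line and fell in at least 1 other. For IFNg that share was 27.8%. Compared directly, Ifitm2 was higher with IFNg than with IFNb in B16.1 (0.32 ± 0.08, adjusted p = 0.00119), as were 26.0% of genes. In KPC.2 it was lower with IFNg than with IFNb (−0.34 ± 0.09, adjusted p = 0.00414), as were 9.18% of genes. The KPC.2 difference did not pass without IFNb replicate 2 (adjusted p = 0.173). The mean over lines was −0.20 ± 0.03 with IFNg (adjusted p = 7.87e-08) and −0.03 ± 0.03 with IFNb (adjusted p = 0.586). The IFNg mean rested on Panc02.3: without that line it was −0.0103 ± 0.03 (adjusted p = 0.992), and the mean of −0.17 ± 0.03 for IFNg against IFNb was 0.0023 ± 0.03 without it (adjusted p = 1).

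Ifitm3 made up more of the summed counts of Ifitm1, Ifitm2 and Ifitm3 under cytokine than in NS in most lines, not only where it rose most. Its share in B16.1 was 93.9 ± 0.300% with IFNg, 88.1 ± 0.612% with IFNb and 11.4 ± 0.781% in NS. In MC38.7 it was 67.2 ± 0.786% with IFNg, 88.7 ± 0.654% with IFNb and 39.0 ± 0.517% in NS. KPC.2 remained mostly Ifitm2, with an Ifitm3 share of 16.4 ± 1.98% with IFNg, 36.4 ± 3.84% with IFNb and 0.711 ± 0.470% in NS. CT26.2 was at 92.2 ± 0.225% with IFNg, 91.4 ± 0.129% with IFNb and 90.1 ± 0.338% in NS, so Ifitm3 led there without cytokine too. Panc02.3, where Ifitm3 rose less, had a share of 89.5% with IFNg, 79.35% with IFNb and 59.4% in NS. Ifitm2 and Ifitm1 fell with IFNg in that line, and Ifitm3 was lower with IFNg than with IFNb (−0.37 ± 0.08). The larger share with IFNg there was thus not a larger rise of Ifitm3. LLC had 82.4% with IFNg, 89.8% with IFNb and 59.7% in NS, and Renca 80.2%, 80.6% and 67.2% in that order. YUMMER1.7 changed little, with 84.4% with IFNg, 81.3% with IFNb and 81.4% in NS. Per kilobase of transcript, NS levels in KPC.2 were 1.15 ± 0.771 CPM for Ifitm3 and 165 ± 4.61 CPM for Ifitm2, and in B16.1 14.8 ± 2.02 CPM and 119 ± 8.13 CPM. In IFNg-treated B16.1 the per-kilobase levels were 1764.5 ± 90.8 CPM for Ifitm3 and 118 ± 11.6 CPM for Ifitm2.

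**Figure D4:**
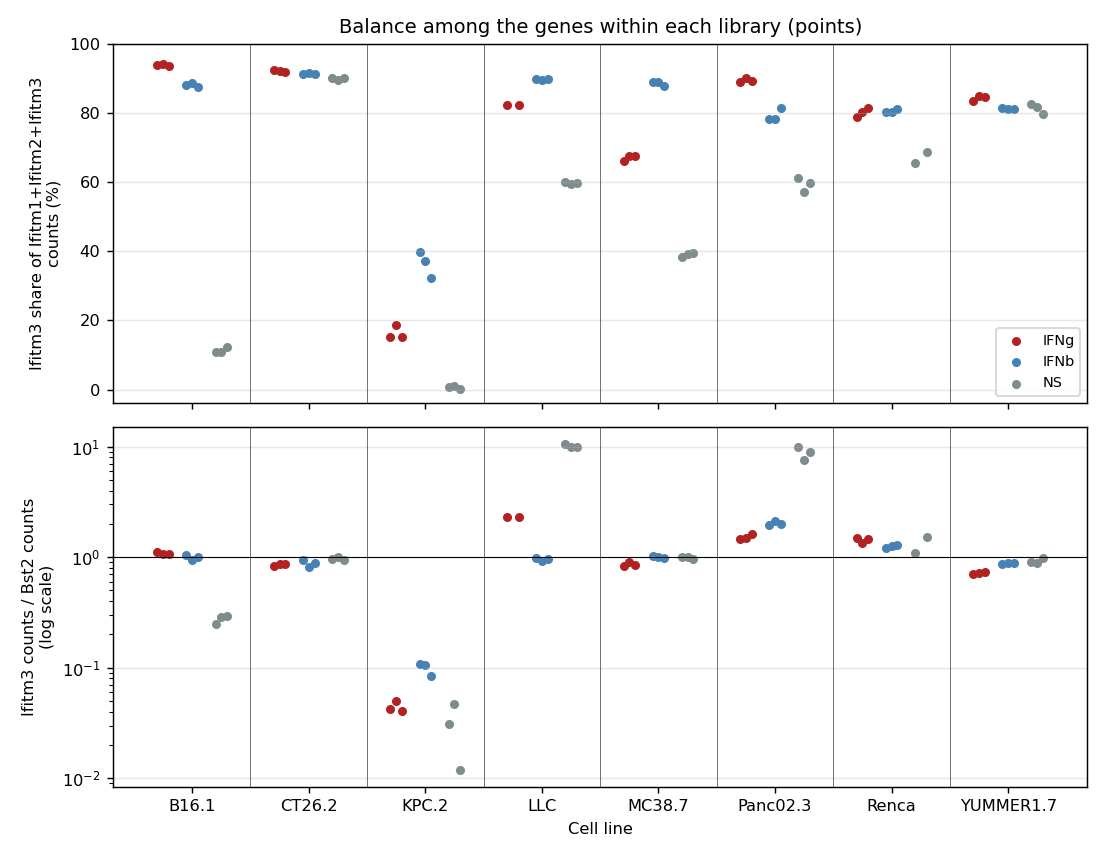
Upper panel, share of Ifitm3 in the summed counts of Ifitm1, Ifitm2 and Ifitm3, in percent, and lower panel, ratio of Ifitm3 to Bst2 counts on a logarithmic axis. Each point is a library, with IFNg, IFNb and NS from left to right in each line. The share rises with cytokine in B16.1 (93.9% with IFNg, 88.1% with IFNb, 11.4% in NS), and the ratio is lower with each cytokine than in NS in LLC and Panc02.3.

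The 3 clustered genes are related in sequence, and pseudo-alignment can split reads where they are alike. Aligned over their first coding transcripts, 66.8% of bases were identical between Ifitm2 and Ifitm3, 63.4% between Ifitm1 and Ifitm3 and 63.1% between Ifitm1 and Ifitm2. Words of 31 bases, compared over the GENCODE transcripts, were shared with another gene's transcripts for 55.5% of those of Ifitm2, 20.5% of Ifitm3, 11.6% of Ifitm1, 4.3% of Ifitm10 and 0% of Bst2. These shares include pseudogenes and do not measure the error of a count, which was not measured. The 9 other rows of the table that share such words with them held 152 counts over all libraries, against 413685 for the 3 genes. Fitted as 1 summed row, the 3 genes changed by 0.96 ± 0.03 with IFNg and 1.20 ± 0.03 with IFNb on the mean of the lines (adjusted p = 1.11e-37 and 1.44e-42). In KPC.2 the sum changed by −0.16 ± 0.08 with IFNg (adjusted p = 0.157) and rose by 0.60 ± 0.09 with IFNb (adjusted p = 4.35e-07). The IFNg rise of Ifitm3 in that line is thus not seen in the sum. Ifitm2 made up 99.3% of that sum in NS and Ifitm3 0.711%, so the sum mainly follows Ifitm2 and cannot test the rise of Ifitm3.

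Ifitm1 was at a clear level in 1 line, Panc02.3, and fell there with IFNg. It had 14.2, 7.81 and 10.3 CPM with IFNg, 46.8, 54.0 and 44.2 CPM with IFNb and 62.4, 73.9 and 66.4 CPM in NS, in a line where Ifitm3 rose. The 3 groups did not overlap, and the changes were −2.60 ± 0.21 with IFNg (adjusted p = 1.78e-15), −0.48 ± 0.17 with IFNb (adjusted p = 0.0883) and −2.12 ± 0.21 for IFNg against IFNb (adjusted p = 1.49e-12). The IFNb difference did not pass, but did with DESeq2's test (adjusted p = 0.00436) and with the line fitted alone (adjusted p = 0.0452). Of the summed counts of the 3 genes in Panc02.3, Ifitm1 took 1.5 ± 0.30% with IFNg, 4.7 ± 0.57% with IFNb and 11 ± 0.29% in NS. In LLC, at a lower level of 2.46 and 2.46 CPM with IFNg, 1.43, 1.25 and 1.17 CPM with IFNb and 3.0, 2.93 and 2.73 CPM in NS, IFNb was lowest (−1.17 ± 0.28 against NS, adjusted p = 0.000569), and 21.0% of genes fell with IFNb in that line. Ifitm1 was 0.95 ± 0.30 higher with IFNg than with IFNb (adjusted p = 0.0119), a direction that passed for 16.8% of genes, but not without IFNg replicate 3 (adjusted p = 0.0604) or IFNb replicate 3 (adjusted p = 0.0644). CT26.2 averaged 3.21 ± 0.855 CPM with IFNg, 2.99 ± 0.782 CPM with IFNb and 2.41 ± 0.836 CPM in NS, which overlapped. YUMMER1.7 was between 0.519 and 0.632 CPM in its 3 groups. KPC.2 had 0 counts in all 9 libraries, which allows up to 0.136 CPM with IFNg, 0.335 CPM with IFNb and 0.162 CPM in NS (3 counts over a group, counting error only), and B16.1, MC38.7 and Renca held at most 6 counts in any library. The change with IFNg differed between lines (F test, adjusted p = 4.22e-09), a test that includes lines near 0.

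Ifitm10 was detected mainly in Renca, at 10.5, 12.7 and 8.93 CPM with IFNg, 12.2, 11.1 and 13.9 CPM with IFNb and 7.25 and 9.26 CPM in NS. The IFNb libraries lay above the NS ones and the IFNg libraries overlapped them, but neither 0.38 ± 0.40 with IFNg (adjusted p = 0.662) nor 0.59 ± 0.40 with IFNb (adjusted p = 0.409) passed. KPC.2 followed at 2.48 ± 0.247 CPM with IFNg, 0.682 ± 0.702 CPM with IFNb and 2.77 ± 1.92 CPM in NS. The other 6 lines averaged under 0.5 CPM in each group. Ifitm10 passed in 0 lines for any of the 3 comparisons, and its changes did not pass the F test between lines (adjusted p = 0.695 with IFNg, 0.212 with IFNb). Fitted alone, Renca gave 0.60 with IFNb (adjusted p = 0.0542) and 0.42 with IFNg (adjusted p = 0.203). Renca libraries held 82 to 255 Ifitm10 counts. Outside Renca no library held more than 21 counts, and there a moderate change would not be detectable.

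The genes most like each member were ranked by Pearson's r of log2 CPM over the 24 group means, which share lines and NS groups. Closest to Bst2 were Oasl2 (r = 0.963), which encodes an oligoadenylate synthetase-like protein, the helicase-family gene Ddx60 (r = 0.955) and Xaf1 (r = 0.945), all known interferon-stimulated genes. Closest to Ifitm3 were Apobec1 (r = 0.895), a cytidine deaminase, the nuclear body gene Sp100 (r = 0.869) and the helicase gene Ddx24 (r = 0.867). Ifitm2 was closest to Islr (r = 0.949), Ccn5 (r = 0.941) and Glt8d1 (r = 0.871). Ifitm1 was closest to Cdc42bpa (r = 0.911), Olfr1254 (r = 0.909) and Cd93 (r = 0.903), and Ifitm10 to Slc13a2 (r = 0.966), Bik (r = 0.959) and Bcl11b (r = 0.959). Ifitm1 and Ifitm10 were at their highest in 1 line each, Panc02.3 and Renca, so few groups shape their r.

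Of 17 genes for interferon receptors and signalling, 12 rose and 4 fell with IFNg (mean of the 8 lines), against 18.3% of all tested genes that rose and 23.7% that fell, so the share that fell was near that of all genes. Their median log2 fold change with IFNg was 1.23, against −0.04 over all genes. With IFNb 9 rose and 1 fell, against 13.0% of all genes that rose and 17.3% that fell, with a median of 0.13 against −0.02. In these medians, genes with 3 counts or fewer in a group were set to the fold that 3 counts allow there, and to no change in lines where both groups were that low; over the 16 signalling genes above 3 counts in every group the medians were 1.13 with IFNg and 0.16 with IFNb. Irf7 rose by 3.82 ± 0.06 with IFNg and 5.30 ± 0.05 with IFNb. Irf1, a factor of the IFNg response, was 3.04 ± 0.02 higher with IFNg than with IFNb, whereas Usp18, which damps type I signalling, was lower with IFNg (−1.63 ± 0.04). Of 15 other restriction factors, 11 rose and 2 fell with IFNg and 9 rose and 0 fell with IFNb, against the same shares of all genes. Their medians were 1.61 with IFNg and 0.92 with IFNb, against −0.04 and −0.02 over all genes. Over the 9 with more than 3 counts in every group, which leaves out genes near 0 in some lines, the medians were 0.71 with IFNg and 0.65 with IFNb. Between the cytokines, 5 of the 15 were higher and 7 lower with IFNg than with IFNb, against 18.0% and 18.7% of all genes. Samhd1, which depletes nucleotides, was 1.41 ± 0.02 higher with IFNg than with IFNb. Rsad2 (−1.39 ± 0.07) and Mx2 (−1.26 ± 0.07), each with 1 group at 3 counts or fewer, were lower with IFNg.

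Of 8 known regulators and partners of IFITM proteins, 1 rose and 6 fell with IFNg, against 18.3% of all genes that rose and 23.7% that fell, and 1 rose and 5 fell with IFNb, against 13.0% and 17.3%. The list medians were −0.17 with IFNg and −0.08 with IFNb, against −0.04 and −0.02 over all genes. Nedd4, a ubiquitin ligase that marks IFITM3 for degradation, fell with IFNg (−0.44 ± 0.03, adjusted p = 1.88e-19) and with IFNb (−0.23 ± 0.03, adjusted p = 3.8e-09). Zdhhc20, which palmitoylates IFITM3, fell with IFNg (−0.28 ± 0.03), while Zmpste24, a protease that works with IFITM proteins, did not pass with IFNg (−0.01 ± 0.03, adjusted p = 0.993). Of 10 genes of tetherin turnover and virus budding, 4 rose and 6 fell with IFNg and 1 rose and 3 fell with IFNb, against the same shares of all genes. The list median was −0.08 with IFNg, against −0.04 over all genes, and with IFNb it was −0.02, as over all genes. Chmp4b, a subunit of the membrane-cutting ESCRT-III complex, rose with IFNg (0.36 ± 0.03) and IFNb (0.22 ± 0.03). Vps4a (−0.19 ± 0.03) and Ap2a1 (−0.10 ± 0.02) fell with IFNb. Rnf115, a ligase that aids tetherin-mediated restriction in human cells, rose with IFNg (0.28 ± 0.03).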

How the data were processed

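Per the labels' protocols, RNA was purified on Qiagen RNeasy mini columns and libraries were built with the directional NEB Ultra II kit. Trimmomatic 0.36 and kallisto (no version) are named with mm10 and GRCm38 in the submitters' processing notes. The values are the unscaled estimated counts that the authors deposited for each gene row, all of them whole numbers. The route from transcripts to genes and the use of strand are not given in the sources used here. Sample titles gave the group of each column.

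From these, edgeR 4.0.16 in R 4.3.3 was used for 1 quasi-likelihood model of all 70 libraries with 24 group coefficients and TMM scaling, after its filter on low counts kept 16147 of 35197 genes (prior degrees of freedom 9.22). Contrasts were taken within lines and as the equal mean of 8 lines, with F tests between lines, and p-values were adjusted over all tested genes. SE is the size of a log2 fold change over the square root of F. IFNg and IFNb contrasts share the NS libraries. Groups with 3 or fewer counts got no fold change or call. CPM uses tested genes only, except for the lineage markers, where it uses all gene rows without TMM scaling. Sequences are from RefSeq and GENCODE tables, aligned with Biopython 1.88. The script was tested on simulated data.

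Alternatives were DESeq2's size factors, DESeq2 1.42.0, no filter, lines fitted alone, a replicate block, the 3 clustered genes summed, and each of 70 libraries left out, with scaling, gene filter and dispersion trend kept from the full fit. Replicate pairs were compared: 0 were identical, and the lowest chi-square per degree of freedom was 1.53. The named genes were the 5 members, the 3 genes most like each, and, from each list, up to 3 with the largest changes past the threshold and 1 that did not pass. Members and lists were chosen with earlier results of these data known. Leaving single lines out of the mean or the range was added after seeing the data.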

Additional observations from a re-analysis of the deposited data

Results flagged for a closer look

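The results below were marked because the change under one comparison differed between the 8 lines by an F test on that difference. Each adjusted p comes from edgeR's quasi-likelihood model, Benjamini-Hochberg adjusted. For IFNg against NS they were 8.01e-43 for Ifitm3, 5.78e-38 for Bst2, 7.61e-19 for Ifitm2 and 4.22e-09 for Ifitm1, against 69.2% of all genes past the same test. For IFNb against NS they were 1.79e-43 for Ifitm3, 4.34e-43 for Bst2 and 4.83e-05 for Ifitm2, against 48.2%. For IFNg against IFNb they were 1.07e-33 for Ifitm3, 1.33e-31 for Bst2, 3.34e-17 for Ifitm2 and 7.31e-09 for Ifitm1, against 70.1%.

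In YUMMER1.7, whose NS means of Ifitm3 and Bst2 were the highest of the 8 lines, the IFNb change of neither gene passed. Ifitm2 and Ifitm1 fell with IFNg in Panc02.3, by −1.49 ± 0.09 and −2.60 ± 0.21, in a line where 31.6% of all genes fell with IFNg. The test of Ifitm1 includes lines where it had 3 counts or fewer.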

How the results depend on the processing

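The means of Ifitm3 and Bst2 over the 8 lines kept their direction and stayed past the threshold under DESeq2's size factors, DESeq2's test, no filter on low counts, the replicate block and every single library or line left out. Summing Ifitm1, Ifitm2 and Ifitm3 gave a rise in several lines where Ifitm2 alone was at or below 0. Ifitm3 is part of that sum, so the summed values do not test the calls of Ifitm2 alone. With IFNg the summed values were 3.85 in B16.1, 1.14 in LLC, 0.21 in Panc02.3 and 0.96 on the mean, and with IFNb 2.57 in B16.1, 0.60 in KPC.2, 1.82 in LLC, 0.76 in Panc02.3, 0.71 in Renca and 1.20 on the mean. The sum was −0.68 for IFNg against IFNb in LLC, and −0.16 with IFNg in KPC.2, where Ifitm3 alone rose. Left out of the mean after the data were seen, MC38.7 brought the IFNb mean of Ifitm2 to −0.081 (adjusted p = 0.0466), and Panc02.3 brought its IFNg mean to −0.0103 and its mean for IFNg against IFNb to 0.0023, so that these calls rest on the lines named. With single libraries left out, 514 to 540 genes changed at least 2-fold with IFNg and 266 to 278 with IFNb, against 525 and 272 with all libraries.

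Over all alternatives, the adjusted p for IFNg against IFNb in CT26.2 ran from 0.0102 to 0.258 for Ifitm3 and from 0.00439 to 0.442 for Bst2, that of Ifitm3 in YUMMER1.7 from 0.000127 to 0.0646, that of Bst2 in Renca from 0.0149 to 1, and that of Ifitm1 with IFNb in Panc02.3 from 0.00436 to 0.284. Ifitm2 in KPC.2 no longer differed past the threshold between IFNg and IFNb without IFNb replicate 2 (adjusted p = 0.173). Replicate numbers are shared between groups of a line. Of 68 pairs with the same number, 1 had deviations correlated over 0.1 (0.101, lowest −0.170). Deviations from means of so few libraries cannot show whether samples with the same number were handled together. With the replicate as a block, the mean changes were 2.17 with IFNg and 2.57 with IFNb for Ifitm3 and 2.53 and 2.87 for Bst2, 505 and 257 genes changed at least 2-fold, and no call of a member changed. Depth limits Ifitm1 and Ifitm10 most, with groups at or under 3 counts.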

Other observations

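Other members of the family were close to absent. Ifitm5, a bone gene, held 270 counts over all 70 libraries, Ifitm6 326 counts with at most 45 in 1 library, of CT26.2, and Ifitm7 59 counts. A list of 9 genes held these 3 and related genes outside the Ifitm group, known as dispanins. Of the 9, 3 were tested: Ifitm6, Prrt2 and Tmem91. On the mean of the 8 lines 0 passed with either cytokine in edgeR's quasi-likelihood test, and groups near 0 counts give that test little power.

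Of 21 tested genes next to the members on the genome, 4 rose and 3 fell with IFNg, against 18.3% of all genes that rose and 23.7% that fell, so the share that rose was near that of all genes. With IFNb 1 rose and 6 fell, against 13.0% and 17.3%. Over the 14 with more than 3 counts in every group, the median log2 fold change was −0.03 with IFNg and −0.07 with IFNb, against −0.04 and −0.02 over all genes. Mvb12a, a subunit of the ESCRT-I complex beside Bst2, rose with IFNg (0.27 ± 0.03, adjusted p = 1.03e-10) and IFNb (0.20 ± 0.03, adjusted p = 4.2e-07), and Mrpl34, a mitochondrial ribosome gene, fell with IFNg (−0.23 ± 0.04, adjusted p = 4.73e-06) and IFNb (−0.31 ± 0.04, adjusted p = 1.19e-08).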
